A study of Mus musculus with 4 samples.

Results

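Respiratory complex I, or NADH:ubiquinone oxidoreductase, is described here through its nuclear genes in polymorphonuclear myeloid-derived suppressor cells (PMN-MDSCs) of neonatal mice. The genes were chosen by name, as every row whose symbol starts with Nduf, without the 4 rows whose symbol ends in -ps. This left 48 of the 28585 genes listed. They comprised 36 subunits, 8 assembly factors (Ndufaf genes) and 4 genes that carry the name but are copies or belong elsewhere (Ndufa4, Ndufa4l2, Ndufb4c and Ndufs6b). Of the subunits, 7 were core and 29 were accessory; 16 lie in the matrix arm, 19 in the membrane arm, and Ndufab1 is found in both.

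Complex I is the entry point of the respiratory chain. Its matrix arm takes electrons from NADH through a flavin and a row of iron-sulfur clusters to ubiquinone, and its membrane arm, whose core is encoded by mitochondrial DNA, pumps protons. Core subunits carry out the catalysis and are shared with bacteria, whereas accessory subunits surround and stabilise them, and assembly factors build the complex without staying in it. Neutrophils, the lineage of PMN-MDSCs, are known to draw most of their energy from glycolysis.

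Bulk RNA sequencing was performed on 4 libraries of PMN-MDSCs, 2 for each genotype, from spleens on postnatal day 7. The question was which transcripts differ when Dhps, the gene of the deoxyhypusine synthase that modifies the translation factor eIF5A, is deleted in myeloid cells. Animals of the group labelled Dhps cko carried the floxed Dhps alleles and a Cre recombinase driven from the Lysm locus, which is active in myeloid cells in general (Dhps fl/fl Lysm cre, called Dhps ΔLysm below). Controls labelled Dhps flox carried the floxed alleles only (Dhps fl/fl). Both groups were on a C57BL/6J background, and each library came from 300000 cells that had been sorted as CD11b+ Ly6Clo/- Ly6G+. The labels give a replicate number but not the animals, sexes or pools behind a library, so p-values measure the spread between these libraries, which may be technical. In bulk samples, fewer cells of a type and less RNA per cell cannot be told apart.

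The values are FPKM, the fragments of a gene scaled by the length of its transcript and by the mapped fragments of the library. They summed to between 304281 and 319286 in a library, and between 10611 and 10729 genes reached 1 FPKM. The steps between low values gave approximate depths of 29600000 to 32200000 fragments. Dhps itself was at 2.38 and 2.59 FPKM in Dhps ΔLysm, against 3.57 and 3.11 FPKM in the controls, a difference in the direction of the labels with the transcript still present (limma adjusted p = 0.63). The 8 neutrophil markers were abundant in every library, and 7 had a fold change above 0 (median 0.08, log2), as had 52.2% of all genes tested. Of the 8, 2 were higher without overlap (20.0% of all genes), and the larger difference was that of Ly6g, at 222 and 242 against 195 and 185 FPKM (limma adjusted p = 0.53). Markers of other cells were present. The 8 B cell markers summed to 66.1 and 68.4 FPKM in Dhps ΔLysm and to 41.9 and 51.5 FPKM in Dhps fl/fl, and 7 of them were higher without overlap between genotypes, as were 20.0% of all genes tested. For the 8 T cell markers the sums were 18.3 and 14.9 against 11.5 and 7.99 FPKM, with 5 higher without overlap against the same 20.0%. For the 10 markers of monocytes and macrophages they were 167 and 174 against 139 and 132 FPKM, with 7 higher without overlap (20.0% of all genes), and none of these 26 markers was at 0 in all libraries. The 5 primary granule markers, which mark early neutrophils, summed to 81.3 and 54.5 against 46.3 and 56.5 FPKM. All 5 had a fold change above 0 (median 0.55, log2), where 52.2% of all genes had, and 1 was higher without overlap, where 20.0% of all genes were. Dhps ΔLysm replicate 1 had the highest sum, and Dhps ΔLysm replicate 2 lay below Dhps fl/fl replicate 2. The 6 eosinophil markers summed to 14.0 and 12.4 against 9.32 and 9.06 FPKM, with 4 higher without overlap (20.0% of all genes), whereas 1 of 8 proliferation markers had a fold change above 0 (52.2% of all genes), with a median of -0.04 (log2). Erythroid markers were abundant, mainly through the globin genes Hba-a1 and Hbb-bs. The 6 summed to 452 and 542 FPKM in Dhps ΔLysm and to 369 and 554 FPKM in the controls, and 5 of them overlapped. All 6 had a fold change above 0 (median 0.17, log2), where 52.2% of all genes had. Of 4 platelet markers 3 passed the filter, and 1 of these had a fold change above 0 (median -0.35, log2). The median shifts of neutrophil, B cell, T cell, macrophage, eosinophil, erythroid and primary granule markers ran in the same direction as those of complex I described below. Those of proliferation and platelet markers ran the other way. The part of these shifts in those of complex I was not tested.

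The level of the subunits spanned a wide range on the FPKM scale, which is per length. Their mean over the 4 libraries ran from 0.655 FPKM for Ndufb2 to 37.8 FPKM for Ndufb11, with a median of 9.53 FPKM. Ndufb11 (33.2 to 40.9 FPKM) and Ndufa8 (33.9 to 38.9 FPKM), a subunit on the intermembrane face, stood at the top and could not be ordered, since their ranges overlapped. Ndufb10, another subunit of the membrane arm, lay below both at 17.2 to 21.1 FPKM. At the low end were Ndufb2, Ndufab1, Ndufc1, Ndufa12 and Ndufa5, with means of 0.655, 1.04, 1.46, 1.77 and 1.95 FPKM. The annotated transcripts used for length are long for Ndufb2 (4371 bases) and Ndufab1 (3479 bases) against a subunit median of 939.5 bases, and the length that entered the deposited FPKM was not analysed here. Assembly factors were lower, with a median of 1.27 FPKM and a range from 0.113 FPKM for Ndufaf2 to 4.12 FPKM for Ndufaf3. All 48 genes passed the filter on low values, a mean of at least 0.1 FPKM, and entered the fit.

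**Figure D1:**
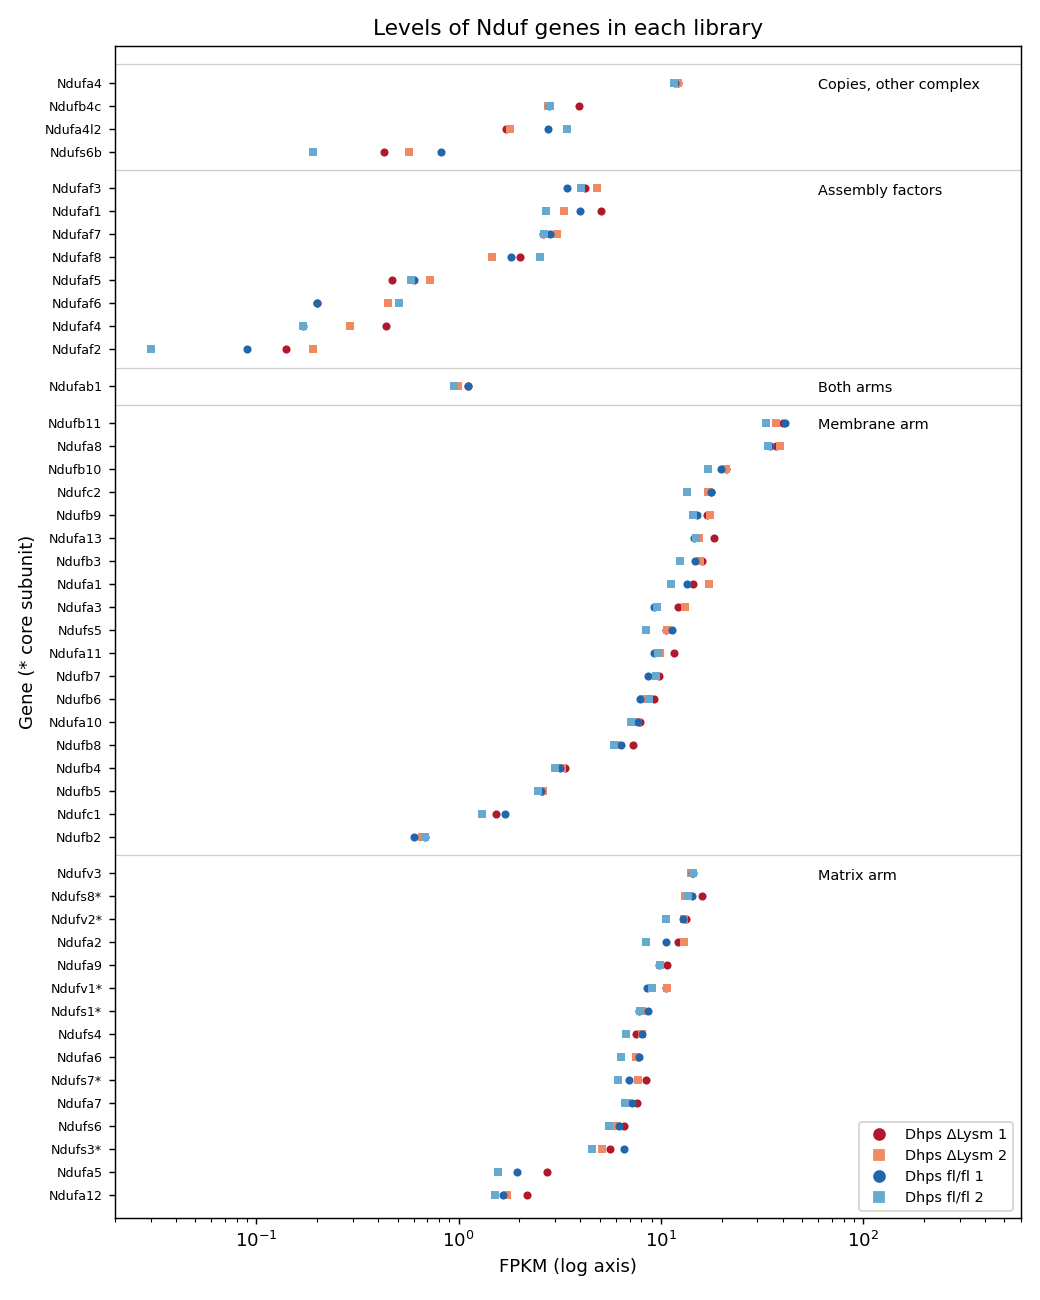
FPKM (log axis) of 47 Nduf genes in the 4 libraries, grouped by place in the complex and ordered by mean; circles and squares are replicates 1 and 2, red is Dhps ΔLysm and blue is Dhps fl/fl. Levels run from Ndufb11 and Ndufa8 at the top of the membrane arm down to Ndufaf2, and for most genes the 4 libraries lie close together.

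The median complex I subunit was slightly higher in Dhps ΔLysm PMN-MDSCs, and no single gene passed the test. The 36 subunits had a median log2 fold change (Dhps ΔLysm over Dhps fl/fl, on log2(FPKM + 0.1)) of 0.11, against 0.01 over all 17953 genes tested. Of the subunits, 32 had a fold change above 0, whereas 52.2% of all genes tested did. The libraries did not overlap in 16 of the 36 (44.4%), each time with both Dhps ΔLysm libraries above both Dhps fl/fl libraries, against a background of 20.0%. In 0 subunits were both below, against 16.0% of all genes. With limma and Benjamini-Hochberg adjustment, 0 of the 48 genes had an adjusted p under 0.05, where 0.00557% of all genes (1 gene) did. At an unadjusted p under 0.05, 7 subunits were higher (19.4%, background 4.72%) and none was lower, and 1 further gene, Ndufa4l2, was lower (background 2.28%).

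Libraries of one genotype differed from each other about as much as the genotypes did. Over the subunits, the median deviation of a gene from its own mean was 0.09 and 0.02 (log2) in the Dhps ΔLysm libraries and 0.00 and -0.12 in the Dhps fl/fl libraries. Thus Dhps ΔLysm replicate 2 and Dhps fl/fl replicate 1 were almost level, and Dhps ΔLysm replicate 1 and Dhps fl/fl replicate 2 stood at the ends. Without Dhps ΔLysm replicate 1 the subunit median was 0.06 with 26 of 36 above 0, and leaving out Dhps fl/fl replicate 2 gave 0.07, again with 26 above 0. The number of genes at an unadjusted p under 0.05 was 1 and 3 of 48 in these fits, where 4.60% and 8.97% of all genes were, and 13 without Dhps fl/fl replicate 1, where 7.36% were. The number of subunits higher without overlap was 26 without Dhps ΔLysm replicate 2 and 29 without Dhps fl/fl replicate 1, where 36.1% and 36.6% of all genes were, since 1 library against 2 overlaps less often by construction.

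Other transcripts of like length were also higher in Dhps ΔLysm on the median, and most subunits are short. Among the 1684 genes of at least 1 FPKM whose transcripts fell between the first and the third quartile of subunit lengths (674.75 to 1479.25 bases), the median log2 fold change was 0.09. Of these, 72.6% were above 0, 35.7% were higher without overlap and 11.6% were higher at an unadjusted p under 0.05. The same shares of the subunits were 88.9%, 44.4% and 19.4%. The median length was 1082 bases for these other genes and 939.5 for the subunits, so the match in length is rough. Across the 36 subunits, fold change and transcript length had a Spearman's rho of -0.46 and a Pearson's r of -0.47 (length on the log2 scale), and across 10622 genes of at least 1 FPKM the rho was -0.32 and the r -0.16; these are descriptions over genes of the same 4 libraries. After removal of the length trend from each library, the subunit median was 0.05, 27 of 36 were above 0, 10 were higher without overlap (17.5% of all genes were) and 4 of the 48 genes had an unadjusted p under 0.05 (6.31% of all genes had).

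**Figure D2:**
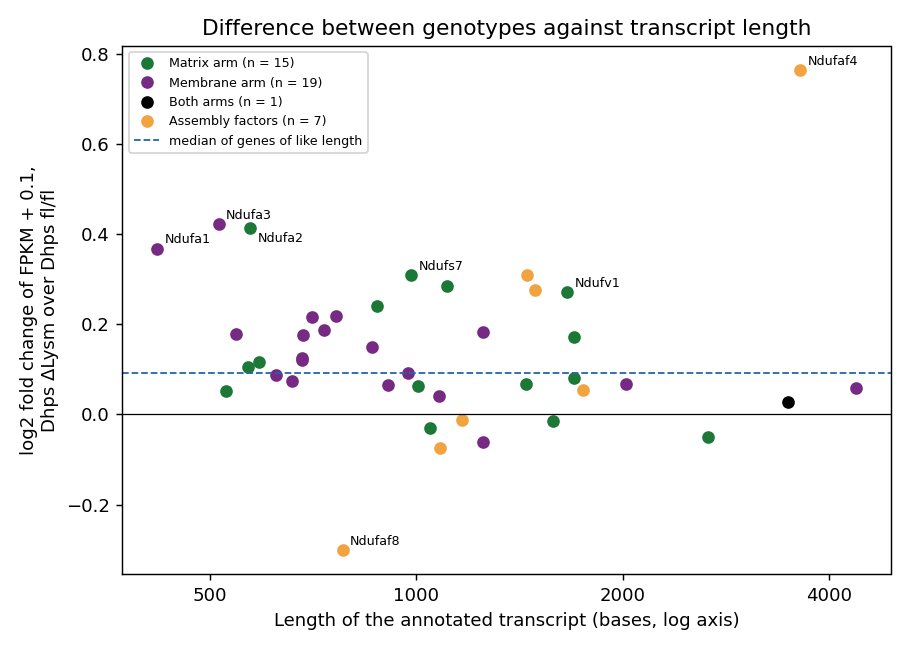
Log2 fold change (Dhps ΔLysm over Dhps fl/fl, of FPKM + 0.1) of 35 subunits and 7 assembly factors (without Ndufaf2) against the length of the annotated transcript in bases (log axis); the dashed line is the median of 0.09 of the 1684 genes of like length. The short transcripts of Ndufa1, Ndufa3 and Ndufa2 are the highest of the subunits, and Ndufaf4, the highest point, is under 0.5 FPKM in every library.

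In the matrix arm, 13 of 16 subunits had a fold change above 0 (81.2%, against 52.2% of all genes and 72.6% of genes of like length) and 6 were higher without overlap (37.5%, against 20.0% and 35.7%). Ndufv1 (gene ENSMUSG00000037916, chr19:4007384-4012806, minus strand, GRCm38), the flavin-bearing subunit where NADH is oxidised, was at 10.6 and 10.7 FPKM in Dhps ΔLysm, and 8.56 and 9.06 FPKM in Dhps fl/fl. Both Dhps ΔLysm libraries were thus above both controls, by 0.27 ± 0.07 (log2, SE; n = 2 per genotype; limma adjusted p = 0.57). Ndufs7, whose iron-sulfur cluster hands electrons to ubiquinone, was at 8.46 and 7.75 FPKM against 6.95 and 6.11 FPKM. It too did not overlap between genotypes, with a difference of 0.31 ± 0.10 (log2, SE; limma adjusted p = 0.65).

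Other core subunits showed smaller differences or none that separated the genotypes. Ndufv2, an iron-sulfur subunit beside Ndufv1, was at 13.3 and 13.0 FPKM against 12.8 and 10.6 FPKM, and the separation rested on a narrow gap to Dhps fl/fl replicate 1. Ndufs8, which carries iron-sulfur clusters, was at 16.0 and 13.1 FPKM against 14.2 and 13.6 FPKM, so that the Dhps ΔLysm libraries lay on both sides of the controls. Ndufs1, the largest subunit and the bearer of several of the clusters, was at 7.80 and 8.10 FPKM against 8.62 and 7.85 FPKM, and Ndufs3 was at 5.62 and 5.13 FPKM against 6.57 and 4.57 FPKM. Both overlapped. Of the 50-base stretches of Ndufs3, 39.7% occur in other annotated genes, so its counting is uncertain. Over the 7 core subunits the median log2 fold change was 0.09, and over the 29 accessory subunits it was 0.12.

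Among accessory subunits of the matrix arm, Ndufa2, a small protein with a thioredoxin-like fold in the NADH-oxidising part, had the largest difference with all libraries used. Without Dhps ΔLysm replicate 2 its difference was 0.365, below those of Ndufa5 and Ndufa12 given below. Ndufa2 was at 12.2 and 13.1 FPKM in Dhps ΔLysm, and 10.6 and 8.43 FPKM in Dhps fl/fl, without overlap (0.41 ± 0.13, log2, SE; limma adjusted p = 0.63), and the difference was 0.25 without Dhps fl/fl replicate 2. Ndufa12 was at 2.19 and 1.73 FPKM against 1.65 and 1.51 FPKM (0.29 ± 0.17; limma adjusted p = 0.80), a difference of 0.12 without Dhps ΔLysm replicate 1 and 0.45 without Dhps ΔLysm replicate 2. Of its 50-base stretches, 26.2% occur in another gene. Ndufa5 was at 2.73 and 1.57 FPKM against 1.94 and 1.56 FPKM. Its Dhps ΔLysm libraries enclosed the control Dhps fl/fl replicate 1, and its fold change of 0.24 became -0.14 without Dhps ΔLysm replicate 1 and 0.62 without Dhps ΔLysm replicate 2. At the other end, Ndufv3 was almost the same in the 4 libraries, at 14.4 and 14.1 FPKM against 14.3 and 14.5 FPKM, and Ndufa7 was at 7.60 and 6.77 FPKM against 7.17 and 6.66 FPKM.

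In the membrane arm, 18 of 19 subunits had a fold change above 0 (94.7%, against 52.2% of all genes and 72.6% of genes of like length) and 10 were higher without overlap (52.6%, against 20.0% and 35.7%). The median length was 732 bases in this arm, against 1082 for the genes called of like length, so these shares are not matched in length. Ndufa3, a small accessory subunit (gene ENSMUSG00000035674, chr7:3617373-3620327, plus strand, GRCm38), was at 12.2 and 13.2 FPKM in Dhps ΔLysm, and 9.30 and 9.59 FPKM in Dhps fl/fl. The gap between genotypes was wider than the spread within either, with a difference of 0.42 ± 0.08 (log2, SE; limma adjusted p = 0.48). It was also the sole subunit that kept an unadjusted p under 0.05 in all 14 alternative analyses, with a difference of 0.36 to 0.48.

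Ndufb9, an accessory subunit of the LYR family, was at 16.8 and 17.5 FPKM against 15.04 and 14.5 FPKM (0.22 ± 0.07, log2, SE; limma adjusted p = 0.63). Of its 50-base stretches, 23.4% occur in Gm49356, an annotated gene that overlaps it on the same strand. Ndufa8 was at 37.0 and 38.9 FPKM against 34.5 and 33.9 FPKM, a difference of 0.15 ± 0.06 (log2, SE; limma adjusted p = 0.71). None of these 3 subunits overlapped between genotypes, and with the length trend removed the difference was 0.14 for Ndufb9 and 0.07 for Ndufa8. Ndufb3 and Ndufb10 also did not overlap, at 16.1 and 15.5 against 14.8 and 12.4 FPKM and at 21.1 and 20.9 against 19.7 and 17.2 FPKM, with a limma adjusted p of 0.76 for each.

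Both X-linked members belong to the membrane arm. Ndufa1 was at 14.5 and 17.4 FPKM in Dhps ΔLysm, and 13.5 and 11.2 FPKM in Dhps fl/fl, without overlap (0.37 ± 0.13, log2, SE; limma adjusted p = 0.68). The difference was 0.24 when replicate 2 of either genotype was left out. Ndufb11 was at 40.1 and 37.1 FPKM against 40.9 and 33.2 FPKM, with overlap. Sex-linked transcripts differed between the genotypes as well: the Y-linked Ddx3y was at 2.14 and 2.47 FPKM in Dhps ΔLysm, and 5.57 and 4.92 FPKM in Dhps fl/fl, and Xist was at 27.5 and 20.3 FPKM against 16.3 and 17.2 FPKM. The Y-linked Eif2s3y, Kdm5d and Uty were also lower in both Dhps ΔLysm libraries, with log2 fold changes of -1.07, -1.02 and -1.09. The part of this in the value of Ndufa1, or in any other difference between the genotypes, was not tested.

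Ndufc1 was the one subunit of the membrane arm with a fold change below 0. Ndufc1 was at 1.54 and 1.31 FPKM against 1.70 and 1.3 FPKM, with overlap; its fold change of -0.06 turned to 0.05 without Dhps ΔLysm replicate 2 and to 0.12 without Dhps fl/fl replicate 1. Ndufb5 was at 2.58 and 2.62 FPKM against 2.57 and 2.48 FPKM. Ndufb4, at 3.35 and 3.24 FPKM against 3.18 and 2.99 FPKM, shares 37.0% of its 50-base stretches with other genes, among them the copy Ndufb4c. Ndufab1, the mitochondrial acyl carrier protein that binds LYR subunits in both arms, was at 1.11 and 0.99 FPKM against 1.11 and 0.95 FPKM and overlapped.

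**Figure D3:**
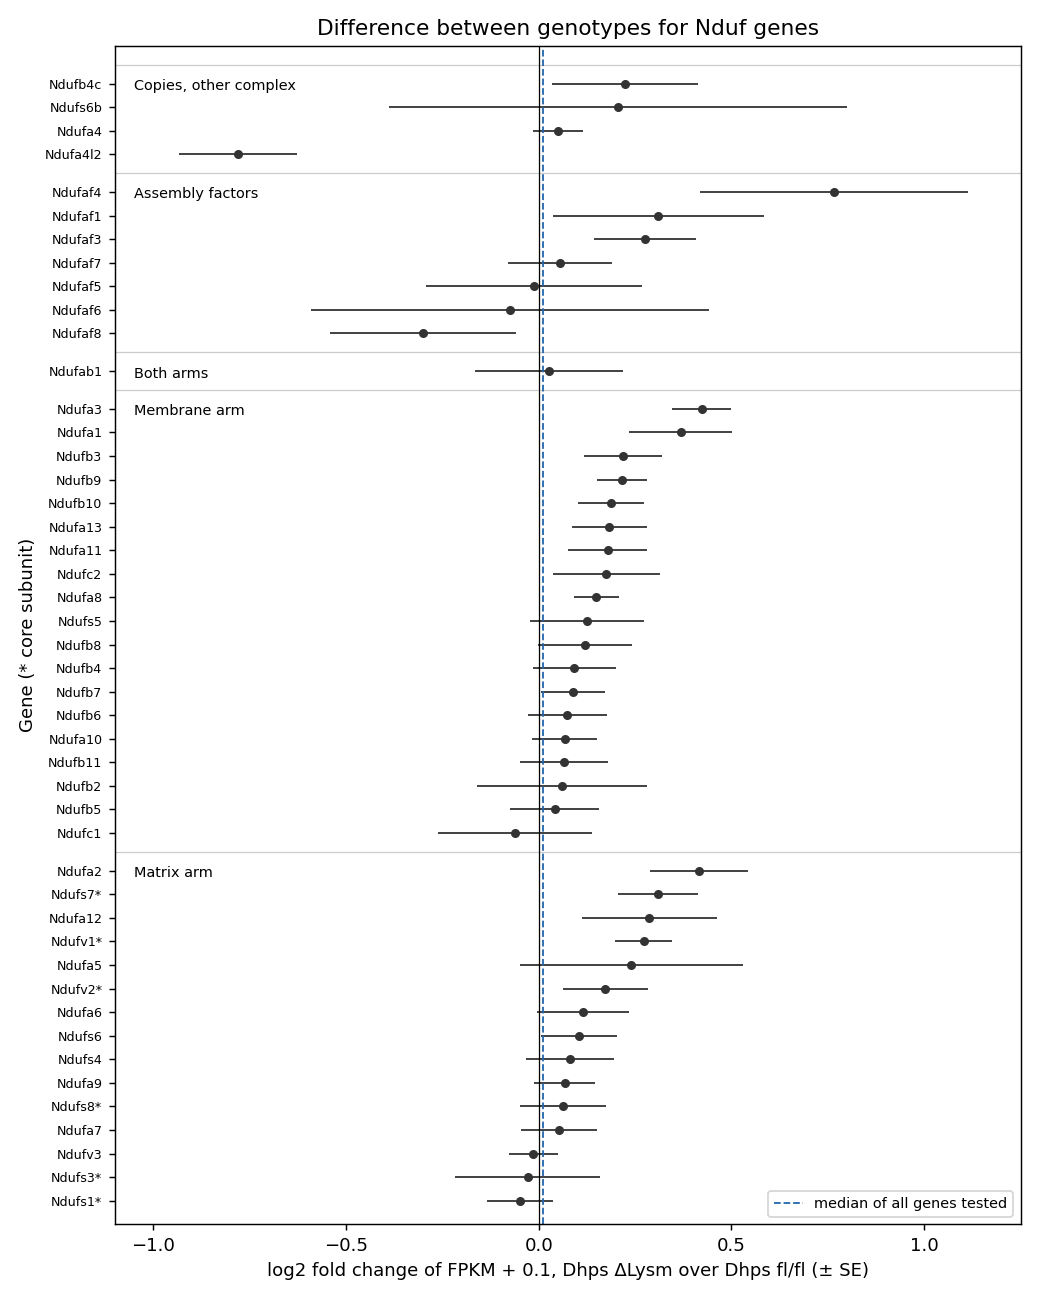
Log2 fold change (Dhps ΔLysm over Dhps fl/fl, of FPKM + 0.1) of 46 Nduf genes (without Ndufaf2), each with its standard error from limma (n = 2 per genotype), grouped by place in the complex; the dashed line is the median of all genes tested, 0.01. The subunits lie mostly just right of 0 with Ndufa3 highest at 0.42, whereas the assembly factors shown scatter from -0.30 to 0.77 with wider errors, and Ndufa4l2 stands alone at -0.78.

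The assembly factors scattered in both directions. Of the 8, 5 had a fold change above 0 (62.5%, against 52.2% of all genes) and 3 were higher without overlap (37.5%, against 20.0%). Both counts include Ndufaf2, whose mean reached the filter of 0.1 FPKM only through Dhps ΔLysm (0.165 FPKM, against 0.06 FPKM in Dhps fl/fl). In limma, 0 of the 8 had an unadjusted p under 0.05, against 4.72% of all genes higher and 2.28% lower. Ndufaf3 and Ndufaf4 form a pair that acts early on the ubiquinone-binding part of the matrix arm. Ndufaf3 was at 4.21 and 4.82 FPKM against 3.42 and 4.01 FPKM, without overlap (0.28 ± 0.13, log2, SE; limma adjusted p = 0.77), with 0.18 when Dhps ΔLysm replicate 2 and 0.16 when Dhps fl/fl replicate 1 was left out. Ndufaf4 was at 0.44 and 0.29 FPKM against 0.17 FPKM in both controls (0.77 ± 0.35, log2, SE; limma adjusted p = 0.76). At the estimated depth these values stand for about 51, 33, 19 and 18 fragments, and the fold change ran from 0.22 to 1.03 over the alternatives.

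Ndufaf2, a relative of Ndufa12 that binds a late intermediate, was the third factor without overlap, at 0.14 and 0.19 FPKM against 0.09 and 0.03 FPKM. These values correspond to no more than about 4 fragments in a library, and 65.6% of its exon bases overlap B230220B15Rik on the opposite strand, so no fold change is given. Ndufaf1, which helps assemble the membrane arm, was at 5.08 and 3.32 FPKM against 4.0 and 2.71 FPKM, and the spread within each genotype exceeded the difference between them (0.31 ± 0.27; limma adjusted p = 0.85). The difference was 0.01 without Dhps ΔLysm replicate 1, 0.04 without Dhps fl/fl replicate 2, and 0.61 and 0.58 without the other library of each genotype. Ndufaf7, a mitochondrial methyltransferase, was at 2.62 and 3.07 FPKM against 2.83 and 2.63 FPKM.

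Ndufaf5, a hydroxylase of Ndufs7, was at 0.47 and 0.72 FPKM against 0.60 and 0.58 FPKM, and its partner Ndufaf8 was at 2.02 and 1.46 FPKM against 1.81 and 2.53 FPKM. Ndufaf8 had the lowest fold change of the assembly factors, -0.30 ± 0.24 (log2, SE; limma adjusted p = 0.83), and its genotypes overlapped, as did those of Ndufaf5. That value was -0.08 without Dhps ΔLysm replicate 2, -0.07 without Dhps fl/fl replicate 2, and -0.52 and -0.53 without replicate 1 of either genotype. Ndufaf6 was at 0.20 and 0.45 FPKM against 0.20 and 0.51 FPKM, so its replicates differed more than its genotypes.

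The gap between subunits and assembly factors did not separate the genotypes. The median log2 fold change of the assembly factors was 0.17, or 0.055 above that of the subunits, and it moved to 0.31 when Dhps ΔLysm replicate 1 was left out, to 0.06 when Dhps ΔLysm replicate 2 was, and to 0.09 with a pseudocount of 1 FPKM. Library by library, the median deviation of the assembly factors was 0.06 and 0.19 in Dhps ΔLysm and -0.09 and -0.05 in Dhps fl/fl (log2). Subtracted from that of the subunits, this gave 0.04 and -0.17 in Dhps ΔLysm against 0.09 and -0.07 in Dhps fl/fl, which overlapped. With 2 libraries against 2, an exact permutation test cannot go below p = 0.33, so none was run on this difference.

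**Figure D4:**
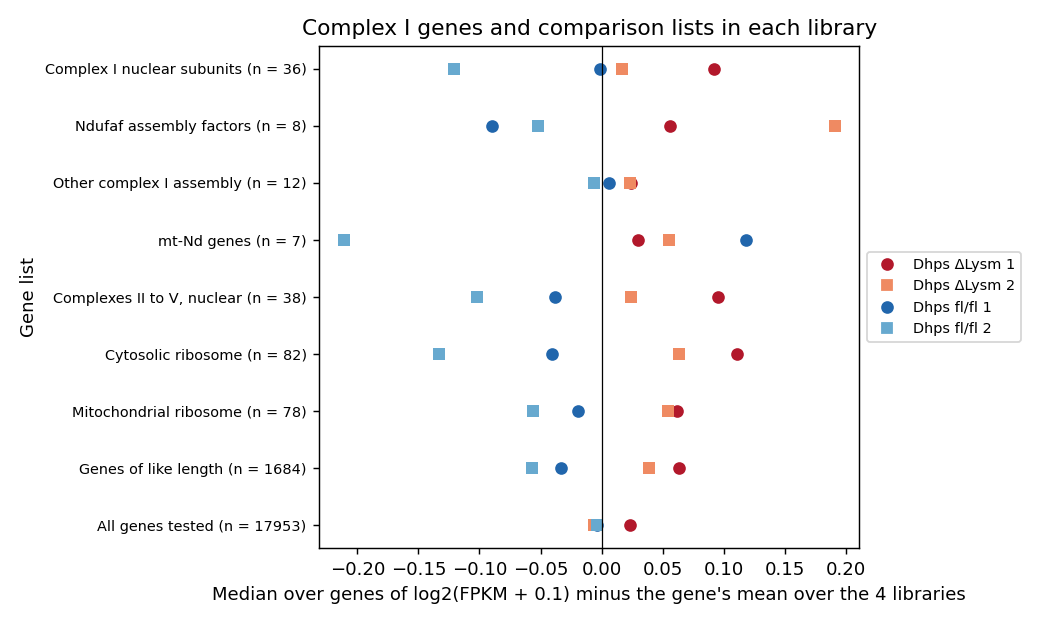
Median over the genes of each list of log2(FPKM + 0.1) minus the gene's mean over the 4 libraries; red is Dhps ΔLysm, blue is Dhps fl/fl, circles and squares are replicates 1 and 2, and n is the number of genes tested. Complex I subunits follow the order of the nuclear genes of complexes II to V, with Dhps ΔLysm replicate 1 highest and Dhps fl/fl replicate 2 lowest, whereas the mt-Nd genes are highest in Dhps fl/fl replicate 1.

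Outside the Nduf name, complex I needs further assembly factors and the mitochondrially encoded core of its membrane arm. Of 14 other assembly factors listed, 13 were in the files and 12 passed the filter. Their median log2 fold change was 0.01, 6 were above 0, and 3 were higher and 1 lower without overlap, where 20.0% and 16.0% of all genes were. Dmac1, which acts in the distal membrane arm, was the single one with an unadjusted p under 0.05 (1 of 12, against 4.72% of all genes higher and 2.28% lower), at 6.88 and 6.56 FPKM in Dhps ΔLysm, and 5.07 and 4.77 FPKM in Dhps fl/fl (limma adjusted p = 0.49). Its genotypes were well apart. Nubpl, which delivers iron-sulfur clusters to complex I, was at or below 0.12 FPKM in every library and fell under the filter.

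The 7 mt-Nd genes were more abundant than the nuclear subunits on the FPKM scale in each of the 4 libraries, mt-Nd3 narrowly so. They ran from 35.5 FPKM for mt-Nd3 to 379 FPKM for mt-Nd1 in single libraries. All 7 overlapped between genotypes, where 20.0% of all genes were higher and 16.0% lower without overlap. Of the 7, 6 had a fold change above 0 (85.7%, against 52.2% of all genes), with a median of 0.07 (log2). mt-Nd1 was at 369 FPKM in each Dhps ΔLysm library and at 379 and 300 FPKM in the controls. mt-Nd2 was at 178 and 189 against 183 and 151 FPKM, mt-Nd3 at 47.7 and 40.9 against 48.3 and 35.5 FPKM, and mt-Nd4 at 280 and 292 against 310 and 242 FPKM. In each of them Dhps fl/fl replicate 1 was the highest library and replicate 2 the lowest, except that mt-Nd2 was highest in Dhps ΔLysm replicate 2. The same ends were seen for mt-Nd4l, at 257 and 250 against 269 and 232 FPKM, mt-Nd5, at 333 and 343 against 368 and 313 FPKM, and mt-Nd6, at 208 and 214 against 239 and 169 FPKM.

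The small excess of nuclear subunits was seen at a like size in other lists. In nuclear subunits of complexes II to V the median was 0.14 (log2 fold change), and 34 of 38 were above 0, against 52.2% of all genes. Of the 38, 19 were higher without overlap (50%, against 20.0% of all genes) and 1 was lower (against 16.0% of all genes). Assembly factors of complexes II to V had a median of 0.08 (20 of 31 above 0), and the 11 genes that make and deliver iron-sulfur clusters had a median of 0.05. Cytosolic ribosomal protein genes had a median of 0.18 (77 of 82 above 0), and those of the mitochondrial ribosome had 0.08 (57 of 78 above 0). The 8 regulators of respiratory genes tested had a median of 0.01.

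The 4 genes that share the Nduf name without being complex I subunits behaved differently from one another. Ndufa4, now assigned to cytochrome c oxidase, was at 12.2 and 12.1 FPKM against 11.8 and 11.7 FPKM, a separation without overlap that was small in size. Its paralog Ndufa4l2 (gene ENSMUSG00000040280, chr10:127514967-127517154, plus strand, GRCm38), a known target of the hypoxia factor HIF-1, was at 1.71 and 1.80 FPKM in Dhps ΔLysm, and 2.78 and 3.43 FPKM in Dhps fl/fl. Both Dhps ΔLysm libraries were well below both controls, the mean being 56.5% of theirs, with a difference of -0.78 ± 0.15 (log2, SE; limma adjusted p = 0.49). At the estimated depth its values stand for about 51 and 52 fragments in Dhps ΔLysm, and 79 and 95 in Dhps fl/fl. Over the alternatives the difference ran from -0.93 to -0.57, and the unadjusted p was under 0.05 in 13 of 14. Ndufa4l2 was the one Nduf gene of 48 that was lower without overlap, where 16.0% of all genes were.

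Ndufb4c and Ndufs6b are single-exon copies of Ndufb4 and Ndufs6, annotated as processed pseudogenes. Ndufb4c was at 3.95 and 2.78 FPKM against 2.81 and 2.84 FPKM, and every 50-base stretch of it (100%) occurs in Ndufb4 or another copy, so reads of these genes cannot be assigned with certainty. Ndufs6b was at 0.43 and 0.57 FPKM against 0.82 and 0.19 FPKM, or about 2 to 9 fragments, with overlap.

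The promoters of the subunits were searched for motifs of factors known to act on respiratory genes. RefSeq promoters (GRCm38.p6, 250 bases before to 50 after the gene start) were matched by symbol for 40 of the 48 genes. Those without a match included Ndufa2, Ndufb9, Ndufs1, Ndufaf6, Ndufa4l2, Ndufs6b and Ndufb4c. A symbol was counted if any of its promoters held the letters. On either strand, the YY1 letters AAGATGGC were found in 8 of 40 (20.0%), against 5.1% of the 10687 symbols of genes tested and 3.2% of all 27025 symbols. The NRF1 letters (GCGCA, any base, GCGC) were found in 9 (22.5%, against 10.8% of genes tested and 5.2% of all), the ETS letters CCGGAAG in 6 (15%, against 19.4% and 9.9%) and the CRE letters TGACGTCA in 3 (7.5%, against 3.4% and 2.0%). The NRF1 matches of Ndufa5, 190 and 26 bases before different gene starts, were the same site.

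All 8 YY1 matches read along the gene and lay 10 to 38 bases after the gene start. The letters stood on the gene strand anywhere in the 50 bases after a start for 2.3% of the symbols of genes tested. In 7 of the 8 the ATG within the motif was an annotated start codon, Ndufaf8 being the exception. The matches include Ndufa3 and Ndufs7, which were higher at an unadjusted p under 0.05, and Ndufc1, which had the lowest fold change of the subunits, so the letters did not go with one size of difference. The sequences below show them, with the motif in capitals and up to 8 bases on each side, 5′ to 3′ on the strand of the gene.
Ndufa3 (chr7:3617387-3617410, plus): ccaagaacAAGATGGCcgggagta
Ndufs7 (chr10:80249465-80249488, plus): ccgaggccAAGATGGCggcgctgg
Ndufa9 (chr6:126849100-126849123, minus): tgtgggagAAGATGGCggccgccg
Ndufs6 (chr13:73328434-73328457, minus): tcaccggcAAGATGGCggcggtgc
Ndufs4 (chr13:114388045-114388067, minus): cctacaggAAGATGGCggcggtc
Ndufb8 (chr19:44555393-44555412, minus): agaaggtgAAGATGGCtgcc
Ndufc1 (chr3:51408918-51408941, minus): tgcggaacAAGATGGCgccgtccg
Ndufaf8 (chr11:120098936-120098959, plus): cagggcccAAGATGGCggcgccct

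Of the other members that differed at an unadjusted p under 0.05, Ndufa8 had an NRF1 match that began 30 bases before the gene start, and Ndufa1 and Ndufv1 had no match to the letters searched. Ndufaf4, an assembly factor that did not reach that threshold, had an NRF1 match 113 bases before its start. Both matches are shown in the same way, with the motif in capitals; that of Ndufa8 lies on the opposite strand, so its capitals read as the complement of the letters, in reverse order.
Ndufa8 (chr2:36049351-36049376, minus): agagcagtGCGCTTGCGCgtcgctgg
Ndufaf4 (chr4:24897962-24897987, plus): agatgtctGCGCATGCGCctgtgcgg

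Runs of proline codons were examined because eIF5A, the protein that DHPS modifies, is known to help ribosomes through consecutive prolines. In the annotated coding sequences (GENCODE M21), 7 of 46 Nduf genes (15.2%) had a run of 3 or more proline codons (CCN), against 2894 of 12537 protein-coding genes tested (23.1%). RNA levels do not measure translation, so these runs are given as features of the transcripts. All 7 runs were of exactly 3 codons, and 6 are shown with the run in capitals and 15 coding bases on each side. For Ndufa7 the stretch crosses an intron.
Ndufv3 (chr17:31527363-31527401, plus): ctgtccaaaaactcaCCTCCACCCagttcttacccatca
Ndufa7 (chr17:33825643-33829697, plus): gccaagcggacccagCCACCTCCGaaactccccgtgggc
Ndufa13 (chr8:69901582-69901620, minus): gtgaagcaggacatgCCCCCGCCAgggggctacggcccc
Ndufc2 (chr7:97400237-97400275, plus): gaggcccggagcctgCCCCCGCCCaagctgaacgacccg
Ndufs5 (chr4:123712840-123712878, minus): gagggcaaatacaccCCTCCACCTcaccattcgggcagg
Ndufaf3 (chr9:108565986-108566024, minus): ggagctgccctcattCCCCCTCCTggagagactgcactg

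Of these 6 genes, 5 had a fold change above 0, as did most subunits and 52.2% of all genes tested. Ndufa13 and Ndufaf3 were higher in both Dhps ΔLysm libraries than in either control, as were 20.0% of all genes. Ndufv3, Ndufa7, Ndufc2 and Ndufs5 overlapped. Ndufa13, also known as GRIM-19, was at 18.3 and 15.5 FPKM against 14.6 and 14.97 FPKM, Ndufc2 at 17.7 and 17.1 against 17.7 and 13.4 FPKM, and Ndufs5 at 10.6 and 10.8 against 11.3 and 8.47 FPKM. In the last pair Dhps fl/fl replicate 2 was the low library, as it was for the subunits as a whole. Of the 50-base stretches of Ndufa13 and Ndufs5, 28.5% and 31.1% occur in other annotated genes.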

How the data were processed

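RNA of PMN-MDSCs was sequenced in 4 libraries, grouped by the genotype in the labels. The authors filtered reads with Cutadapt (v1.9), aligned them with HISAT2 (v2.2.1) and calculated FPKM with StringTie (v2.1.6) and ballgown; the submitters' processing notes name the build mm10. The annotation and the use of strand are not given in the sources used here. FPKM are scaled to the mapped fragments and the transcript length of a gene, so a few abundant genes can shift all others.

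Deposited FPKM were put on a log2 scale after adding 0.1, for 17953 genes whose mean reached 0.1 FPKM. The 2 genotypes were then contrasted in R 4.3.3 by limma 3.58.1 (mean-variance trend, Benjamini-Hochberg adjustment over all genes tested, threshold 0.05), which was tested on simulated data. Fold changes on this scale understate those of low genes. Genes whose libraries did not overlap between genotypes were counted as a description, and groups of genes were given by counts and medians with no test. The members and lists were chosen with earlier results of these data known. Any member could be named; values in every library were given for core subunits, assembly factors, X-linked genes, copies, members with an unadjusted p under 0.05, and the 5 accessory subunits of at least 1 FPKM at either end of the fold changes.

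Alternatives were other pseudocounts (0.01 and 1), filters (a mean of at least 1 FPKM, or none), scalings (TPM, quantile, size factors), removal of the length trend, no variance trend, a replicate block, and leaving out each library. An estimate of depth came from the spacing of low FPKM in genes of 200 to 700 bases; this spacing does not tell a depth from its multiple, and the search was narrowed after a value about double the others was seen for one library, so fragments are approximate. Coordinates, transcript lengths (the principal transcript with the longest coding sequence), overlaps and shared 50-base stretches were from GENCODE M21 (GRCm38), which held 28511 of the gene identifiers and not 74. Tables and plots were made in Python 3.11.15 (pandas 2.3.3, numpy 2.4.6, matplotlib 3.10.9 and scipy 1.17.1). One member counts in the totals and medians but is not reported here by itself.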

Additional observations from a re-analysis of the deposited data

Results flagged for a closer look

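Rows whose symbol ends in -ps were left out of the comparisons, and 2 of these 4 lay higher in each Dhps ΔLysm library than in either control, as were 20.0% of all genes tested. Ndufa12-ps was at 6.42 and 7.65 FPKM against 5.92 and 3.76 FPKM (limma adjusted p = 0.74), and 78.8% of its 50-base stretches occur in Ndufa12, which itself was at 1.51 to 2.19 FPKM. Ndufs5-ps was at 0.39 and 0.37 FPKM against 0.27 and 0.11 FPKM (limma adjusted p = 0.77). The other two, Ndufab1-ps and Ndufb1-ps, overlapped between genotypes, at 0.83 and 1.36 against 0.50 and 1.05 FPKM and at 5.63 and 5.80 against 5.71 and 5.07 FPKM. With 2 libraries per genotype, no single library could be tested as standing apart from its group.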

How the results depend on the processing

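No Nduf gene had an adjusted p under 0.05 in limma in any of the 14 alternatives, the lowest being 0.257. The count at an unadjusted p under 0.05 was 8 of 48 as reported (7.0% of all genes), 4 with the length trend removed (6.31%), 3 without a variance trend (7.21%), 5 with the replicate block (6.03%), and 1 to 13 when each library was left out (4.16% to 8.97%). The number of subunits higher without overlap was 16 as reported, 10 with the length trend removed (17.5% of all genes), and 16 to 29 when each library was left out, where 32.3% to 37.1% of all genes were, since fewer libraries overlap less often. The median log2 fold change of the subunits stayed above 0 throughout, at 0.05 with the length trend removed and 0.06 to 0.18 when each library was left out. That of the assembly factors was 0.17 as reported, 0.089 with a pseudocount of 1 FPKM and 0.062 to 0.306 when each library was left out. The cause of these changes was not tested. A lone library left in a genotype was assumed to vary like the other group. Of 237 pairs of a named member and an alternative, 3 changed sign: Ndufa5 to -0.14 without Dhps ΔLysm replicate 1, and Ndufc1 to 0.05 without Dhps ΔLysm replicate 2 and to 0.12 without Dhps fl/fl replicate 1, within ranges of -0.14 to 0.621 and -0.243 to 0.119 when each library was left out. A further 39 lost and 4 gained an unadjusted p under 0.05. Libraries of the 2 genotypes share replicate numbers only: the deviations of same-numbered libraries had a correlation of -0.06 over 10629 genes, and the replicate block left 5 genes at an unadjusted p under 0.05 and 0 at an adjusted p under 0.05. The filter at a mean of 1 FPKM kept 35 of the 36 subunits and 4 of the 8 assembly factors. FPKM carry no read counts, so no test on counts was run.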
